A study of Mus musculus with 12 samples.

Results

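Super-enhancers are clusters of enhancers with unusually dense transcription factor and co-activator binding, and in embryonic stem cells (ESCs) they lie near many of the genes that hold the pluripotent state. To ask which of them hold most MED1 and most H3K27ac when ESRRB is absent, both signals were set side by side in Esrrb-/- mouse ESCs over every super-enhancer subregion of the series, since each carries a value for both. The subregions were taken as they were deposited and matched on position and type, with no further choice by signal. The study describes its super-enhancers as defined in ESCs by dense MED1 binding and by H3K27ac. The set was therefore already selected on both signals compared here. They comprise 183 PU subregions, which stay free of CpG methylation both in ESCs and in epiblast stem cells (EpiSCs, the primed pluripotent state), and 488 DM subregions, which are unmethylated in ESCs and become methylated in EpiSCs.

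The Esrrb-/- cells were a previously described knock-out ESC line, and the control cells, Esrrb fl/fl, carry the loxP-flanked Esrrb alleles and are labelled wild-type. Both were grown in serum and LIF on gelatin, with no further treatment. The series holds 12 libraries, 2 for each of MED1, H3K27ac and input DNA in each genotype, and the input libraries were not analysed here. Since the 2 replicate libraries of an antibody were merged into 1 value per subregion, no error between replicates can be given, no test was made, and the intervals printed below cover the counting of reads only. The part of Esrrb that was deleted is not given in the sources used here, so signal at Esrrb does not check the genotype.

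MED1 is a subunit of Mediator, the complex that carries signals from enhancer-bound factors to RNA polymerase II at promoters. H3K27ac is acetylation of histone H3 at lysine 27, placed by p300 and CBP on the nucleosomes that flank active enhancers and promoters. ESRRB is an orphan nuclear receptor of naive ESCs that binds a single extended half-site of nuclear receptors, which it shares with NR5A2. MED1 therefore reads co-activator recruitment, and H3K27ac a modification that active enhancers share with active promoters.

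Signal was given as RPKM, read density per kilobase after scaling to 1 read total for each antibody and genotype, and the balance of both marks as log2((MED1 RPKM + 1)/(H3K27ac RPKM + 1)), called the log2 ratio below. Because each antibody was scaled to its own total, the zero of this ratio has no meaning of its own, and scaling to the reads inside the subregions instead raised every ratio by 0.12. Only differences between subregions are read, and counts of subregions past a 2-fold excess, which depend on the scaling, serve to compare groups. The totals behind the scaling are far smaller than the libraries, so the values probably refer to reads over a set of regions, and RPKM and read counts here cannot be compared with those scaled to all mapped reads. All values correspond to whole reads, 130733 for MED1 and 730828 for H3K27ac over the 183 PU and 488 DM subregions together, with a median of 106 and 649 reads per subregion.

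Before the values, the sequences at both ends of the range show what kind of DNA is involved. Among subregions of at least 500 bp chosen for extreme signal, as set out further on, and lying outside exons and non-coding genes, these are the central 200 bases of the 3 with most MED1 relative to H3K27ac, in mm9 coordinates, 5′ to 3′, with CpG dinucleotides in capitals. Each is named by its nearest gene, and the one 452 bp from the Mir290 microRNA gene by that gene.
Mir290, chr7:3217782-3217981, + strand: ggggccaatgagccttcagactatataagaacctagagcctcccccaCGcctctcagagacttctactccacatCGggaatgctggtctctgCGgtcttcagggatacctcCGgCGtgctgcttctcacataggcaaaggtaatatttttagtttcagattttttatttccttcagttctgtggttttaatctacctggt
Stoml1, chr9:58127069-58127268, + strand: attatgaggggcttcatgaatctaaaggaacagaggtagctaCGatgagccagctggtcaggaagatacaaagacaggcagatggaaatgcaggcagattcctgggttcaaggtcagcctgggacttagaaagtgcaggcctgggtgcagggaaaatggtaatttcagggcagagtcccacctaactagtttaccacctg
Esrrb, chr12:87819849-87820048, + strand: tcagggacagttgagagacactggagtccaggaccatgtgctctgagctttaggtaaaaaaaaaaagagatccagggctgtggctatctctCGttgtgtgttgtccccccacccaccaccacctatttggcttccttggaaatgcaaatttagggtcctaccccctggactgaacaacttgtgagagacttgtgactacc

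The corresponding 3 with most H3K27ac relative to MED1 are shown in the same way.
Klf13, chr7:71101282-71101481, + strand: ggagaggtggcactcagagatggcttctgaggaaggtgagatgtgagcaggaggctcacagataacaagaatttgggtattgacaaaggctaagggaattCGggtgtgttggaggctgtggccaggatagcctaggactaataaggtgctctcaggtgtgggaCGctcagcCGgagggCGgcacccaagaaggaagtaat
Ppp2r5c, chr12:111737320-111737519, + strand: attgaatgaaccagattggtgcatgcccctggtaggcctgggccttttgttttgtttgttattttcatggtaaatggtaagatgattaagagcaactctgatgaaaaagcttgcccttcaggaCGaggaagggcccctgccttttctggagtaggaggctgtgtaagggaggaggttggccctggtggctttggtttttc
Epb4.9, chr14:71029049-71029248, + strand: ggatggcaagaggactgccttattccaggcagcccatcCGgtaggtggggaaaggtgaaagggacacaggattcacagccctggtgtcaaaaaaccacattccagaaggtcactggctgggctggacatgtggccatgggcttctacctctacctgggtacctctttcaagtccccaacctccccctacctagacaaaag

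Over the whole subregions, GC content was 41.0% to 52.5% in the MED1-rich set and 52.5% to 56.9% in the H3K27ac-rich set. The number of CpGs varied widely within each, from 3 at Stoml1 to 12 at Mir290 in the first and from 7 at Epb4.9 to 38 at Ppp2r5c in the second.

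MED1 and H3K27ac each spanned more than an order of magnitude in the absence of ESRRB. MED1 ranged from 80.7 to 4944 RPKM with a median of 499, and H3K27ac from 13.6 to 4097 RPKM with a median of 568. The log2 ratio ranged from -2.72 to 4.83, with a standard deviation over subregions of 1.04, of which the counting of reads made up 4.25% of the variance. MED1 was at least 2-fold above H3K27ac at 97 subregions, 14.5% of all, and at least 2-fold below it at 109 subregions, 16.2% of all. The marks went together over all subregions, with a Spearman correlation of 0.51, a description over subregions that share libraries and, in part, loci. The correlation was 0.54 over DM and 0.33 over PU subregions.

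High MED1 and high H3K27ac were often found at different places. Of the 67 subregions with most MED1, 17 were also among the 67 with most H3K27ac, 25.4% of either list, where 67 is 9.99% of all subregions. The shared set held 4 subregions of Esrrb, 3 of Epb4.9, which codes for the actin-bundling protein dematin, and single subregions near Klf2, Mcl1, Setd1b, Slc2a1, Tsc22d1 and others. PU subregions supplied 34 of the 67 highest by MED1 and 36 of the 67 highest by H3K27ac, although DM subregions outnumber them 488 to 183.

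**Figure D1:**
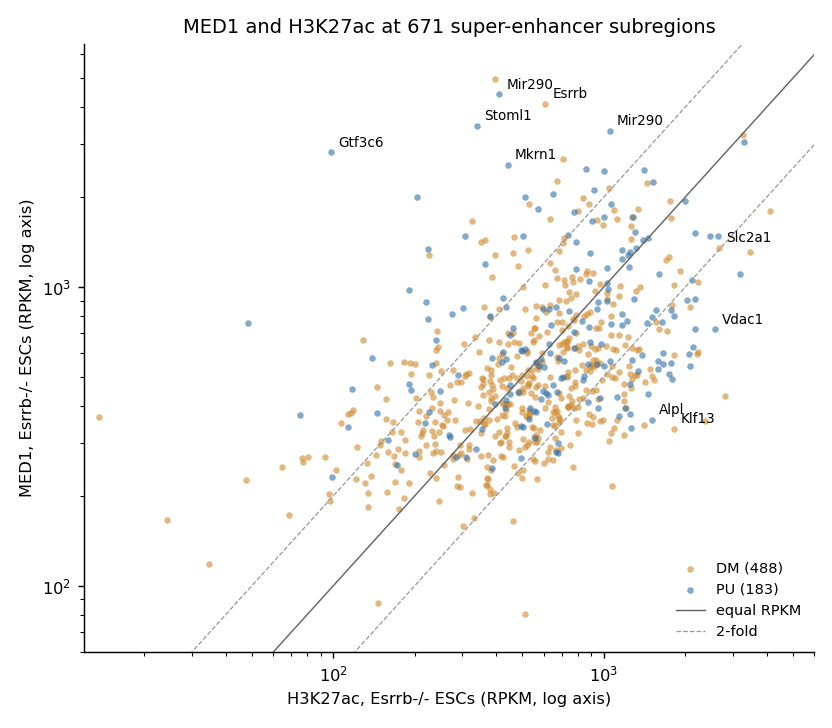
MED1 against H3K27ac in Esrrb-/- ESCs, both in RPKM on log axes, with 1 point per subregion, PU in blue and DM in orange. The solid line marks equal RPKM and the dashed lines a 2-fold difference; 97 points lie above the upper dashed line, with the subregion near Gtf3c6 farthest from it, and 109 lie below the lower one.

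Among subregions of at least 500 bp, the highest MED1 was in the PU subregion 452 bp from Mir290, first of a cluster of microRNAs abundant in ESCs. At chr7:3217588-3218175, an intergenic stretch of 588 bp, MED1 was 4412 RPKM from 597 reads and H3K27ac 410 RPKM from 285 reads, a log2 ratio of 3.42 (95% counting interval 3.22 to 3.63). The second was a DM subregion in an intron of Esrrb itself, chr12:87819686-87820211, with MED1 at 4107 and H3K27ac at 607 RPKM and a log2 ratio of 2.76. Next came a PU subregion 25884 bp from Stoml1, a stomatin-like gene, at chr9:58126855-58127483, with MED1 at 3468 and H3K27ac at 340 RPKM. These 3 places combined very high MED1 with H3K27ac below the median of all subregions or close to it.

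A second PU subregion of the Mir290 block, chr7:3206266-3207275, held MED1 at 3332 and H3K27ac at 1052 RPKM. The PU subregion over an exon of Epb4.9, chr14:71034170-71035667, 118 bp from an annotated gene start, was the only 1 of the 8 highest by MED1 that was also among the 8 highest by H3K27ac, at 3049 and 3302 RPKM. The others of the 8 were near Gtf3c6 (2827 RPKM), a subunit of the polymerase III factor TFIIIC, Fblim1 (2684 RPKM), which codes for a filamin-binding protein, and Mkrn1 (2564 RPKM), a ubiquitin ligase.

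The largest log2 ratio of all, 4.83 (95% counting interval 4.51 to 5.15), belonged to the PU subregion chr10:39977943-39978741, 472 bp from Gtf3c6, with 520 MED1 reads against 93 H3K27ac reads. It overlaps an annotated U3 gene, a small nucleolar RNA with many near-identical copies, and how reads shared between copies were placed is not given in the sources used here, so this value is uncertain. In the control cells its log2 ratio was 4.34.

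The 8 subregions highest by H3K27ac had a different setting. Besides the Epb4.9 subregion above they lay in an intron of the same gene (chr14:71028860-71029437, H3K27ac 3187 and MED1 1105 RPKM), near Slc2a1, the glucose transporter GLUT1 (2652 and 1355 RPKM), and over exons at the starts of Tsc22d1, a leucine zipper regulator (2640 and 1477), Vdac1, a channel of the outer mitochondrial membrane (2564 and 721), Mcl1, an inhibitor of apoptosis (2458 and 1475), and Chd9, a chromatin remodeller (2176 and 724). The last was a PU subregion of 5273 bp, 1714 bp from Setd1b, which codes for a histone H3K4 methyltransferase (2173 and 1511). Of these 8, 7 were PU, and 4 overlapped an annotated gene start.

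Ranked by the log2 ratio among subregions of at least 500 bp with at least 50 reads for each antibody, the highest after those named were near Mkrn1 (2.54), Spry2 (2.36), an inhibitor of FGF signalling, Zfp42 (2.36), the naive ESC gene also called Rex1, and Sox2 (2.29), where a PU subregion in the non-coding Sox2ot gene held MED1 at 373 and H3K27ac at 75.5 RPKM. At the other end stood an intergenic DM subregion 17205 bp from Klf13, a Krüppel-like factor, at chr7:71101006-71101757, with MED1 at 335 RPKM from 58 reads and H3K27ac at 1809 RPKM from 1608 reads, a log2 ratio of -2.43 (95% counting interval -2.81 to -2.05). It was followed by Alpl, tissue-nonspecific alkaline phosphatase, at -2.07, Ppp2r5c, a regulatory subunit of protein phosphatase 2A, at -2.03, Mapt, the microtubule-binding protein tau, at -1.93, Tnip1 at -1.90, Agtrap at -1.85, Vdac1 at -1.83 and Mybl2, a cell cycle transcription factor, at -1.79.

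The 2 ends differed in GC content and position. GC content was 38.9% to 52.5% over the 8 highest ratios and 52.5% to 70.3% over the 8 lowest. Of the 8 lowest, 5 (Alpl, Tnip1, Agtrap, Vdac1 and Mybl2) overlapped an annotated gene start, and of the 8 highest none did, with the subregion near Gtf3c6 closest.

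Across all subregions, the log2 ratio was lower where GC content was higher, a relation looked for after the values had been seen. The Spearman correlation was -0.46 over all subregions, -0.66 over PU and -0.43 over DM. Taken apart, H3K27ac correlated with GC content at 0.46 and MED1 at 0.03. In 5 bins of GC content with equal numbers of subregions, the lowest from 36.3% to 46.1% and the highest from 54.3% to 70.3%, median H3K27ac was 389, 514, 521, 694 and 1025 RPKM, while median MED1 was 511, 494, 445, 503 and 543 RPKM. Of the 67 highest by H3K27ac, 1 lay in the lowest bin of GC content and 40 in the highest bin, against 15 and 14 of the 67 highest by MED1.

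In the control cells H3K27ac followed GC content less closely, at 0.16, and the correlation of the log2 ratio with GC content was -0.06. Over PU alone the relation was present there too, at 0.40 for H3K27ac and -0.27 for the log2 ratio, and over DM the values were 0.11 and -0.11. H3K27ac also spanned a narrower range in the control cells. Its standard deviation over subregions was 189 RPKM there against 533 in Esrrb-/- cells, and its maximum 1358 against 4097 RPKM. Whether this range bears on the weaker relation was not tested. The replicates cannot be separated and the input libraries were not analysed, so the part of library preparation in the relation was not tested. CpG density, in CpGs per 100 bases, correlated with the log2 ratio at -0.27, less closely than GC content did.

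**Figure D2:**
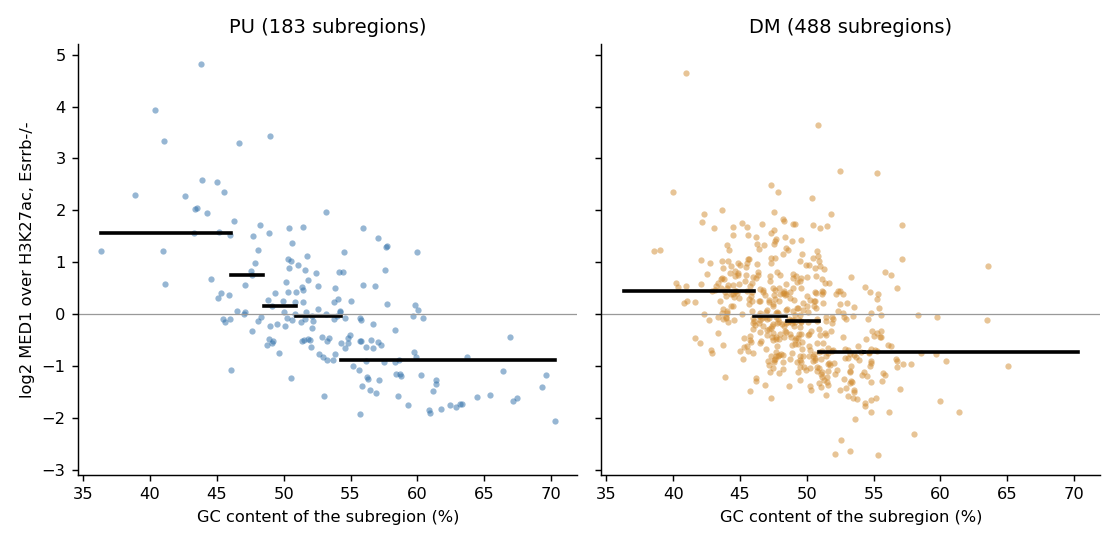
The log2 ratio of MED1 over H3K27ac in Esrrb-/- ESCs against the GC content of each subregion in percent, PU on the left and DM on the right, with 1 point per subregion. Black bars are medians in 5 bins of GC content common to both panels; they run from 1.55 to -0.88 over PU and from 0.44 to -0.74 over DM.

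By type alone, both marks were higher at PU while the log2 ratio was about the same. Median MED1 was 620 RPKM at PU and 459 at DM, and median H3K27ac 714 at PU and 532 at DM. The median log2 ratio was -0.083 at PU and -0.095 at DM, a difference of 0.012, with standard deviations of 1.22 and 0.96, and at least 2-fold excess of MED1 was seen at 36 of 183 PU (19.7%) and 61 of 488 DM (12.5%), beside 14.5% of all. Excess of H3K27ac was likewise seen at 36 of 183 PU (19.7%) and 73 of 488 DM (15.0%), beside 16.2% of all. PU had the larger share past 2-fold in both directions. In the control cells the medians were 0.60 and 0.15.

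PU and DM subregions also differed in GC content, with medians of 52.9% and 48.9%. Within the 5 bins of GC content, again set after the values had been seen, the log2 ratio of PU exceeded that of DM by 0.55 on average. From the lowest to the highest bin the difference was 1.11, 0.78, 0.29, 0.69 and -0.14, and without the second bin, which holds only 15 PU subregions, the average was 0.49. MED1 was higher at PU than at DM in each of the 5 bins, by 0.62, 0.71, 0.44, 0.40 and 0.61 on the log2 scale between medians. For H3K27ac the same differences were -0.40, -0.27, 0.18, -0.17 and 0.66. The last bin, where H3K27ac was higher at PU as well, holds 35 of the 56 PU subregions at gene starts.

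Length separated PU subregions and not DM subregions. The Spearman correlation of the log2 ratio with length was -0.079 over all, -0.35 over PU and 0.019 over DM. Median log2 ratios of PU in 5 bins of length, from subregions of at most 417 bp to those of at least 1904 bp, were 0.41, 0.18, -0.13, -0.23 and -0.53. For DM they were -0.026, -0.091, 0.014, -0.36 and 0.068. Long PU subregions carried more H3K27ac, with a median of 1247 RPKM in the longest bin against 494 in the shortest, while their MED1 was 761 against 609 RPKM.

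Position relative to genes was read from the GENCODE vM1 annotation of mm9. By position, 334 subregions were intergenic, 199 intronic, 101 overlapped an exon of a protein-coding gene and 37 lay in non-coding genes only. The median log2 ratio was -0.64 over exons, -0.13 in introns, 0.072 between genes and 0.15 in non-coding genes. Gene starts, meaning an annotated protein-coding start within 1 kb, were found at 105 subregions, 30.6% of PU and 10.0% of DM.

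The median log2 ratio at gene starts minus that away from them was -0.43. The gap was seen mainly at PU, where the medians were -0.69 for 56 subregions at a start and 0.061 for 127 others. At DM they were -0.16 for 49 and -0.080 for 439. Median MED1 at PU was 637 RPKM at a start and 615 away from it, whereas median H3K27ac was 1179 against 622 RPKM. Median GC content was 52.0% at gene starts and 49.5% away from them, and within the bins of GC content this difference was -0.18. With a window of 5 kb in place of 1 kb it was -0.057.

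Read over whole loci, with subregions on 1 chromosome joined into blocks where the gap was at most 12.5 kb, the subregions formed 225 blocks. Of these, 106 held both types, 96 only DM and 23 only PU. The 40 blocks with most MED1 held 50% of all MED1 reads, and the 44 with most H3K27ac held 50% of all H3K27ac reads. The 10 with most MED1 held 20.3% of MED1 reads (95% Wilson interval 20.1% to 20.5%) on 11.9% of the covered length, and the 10 with most H3K27ac held 18.3% (18.3% to 18.4%) on 13.1%. Only 5 blocks were among the 10 highest by both.

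The Mir290 block, chr7:3193406-3218175, led by MED1 with 3.88% of all MED1 reads against 1.71% of H3K27ac reads. Esrrb (2.37% and 1.10%) and Stoml1 (2.29% and 1.02%) followed, each with a share of MED1 more than 2-fold its share of H3K27ac. The block at Epb4.9, chr14:71022970-71035667, came next by MED1 at 1.89% and first by H3K27ac at 2.79%. Mcl1, Myo10, which codes for an unconventional myosin, Rab12, a small GTPase, Tet1, an enzyme that oxidises 5-methylcytosine, Mllt6 and Tdgf1, which codes for the Nodal co-receptor Cripto, completed the 10 highest by MED1, with 1.54% to 1.78% each.

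By H3K27ac, Epb4.9 was followed by Myo10 (2.09%), Tsc22d1 (2.00%), Setd1b (1.86%), Mir290, Mcl1, Trim71, an RNA-binding ubiquitin ligase (1.63%), Mybl2 (1.58%), Prrc2b (1.54%) and Tet1 (1.48%). Trim71, Mybl2 and Prrc2b held 1.01%, 0.87% and 0.78% of MED1 reads. Of the 10 blocks with most MED1 in Esrrb-/- cells, 6 were among the 10 with most MED1 in the control cells. The block at Epb4.9 was not, where its rank was 61, and Mir290 came first in both.

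**Figure D3:**
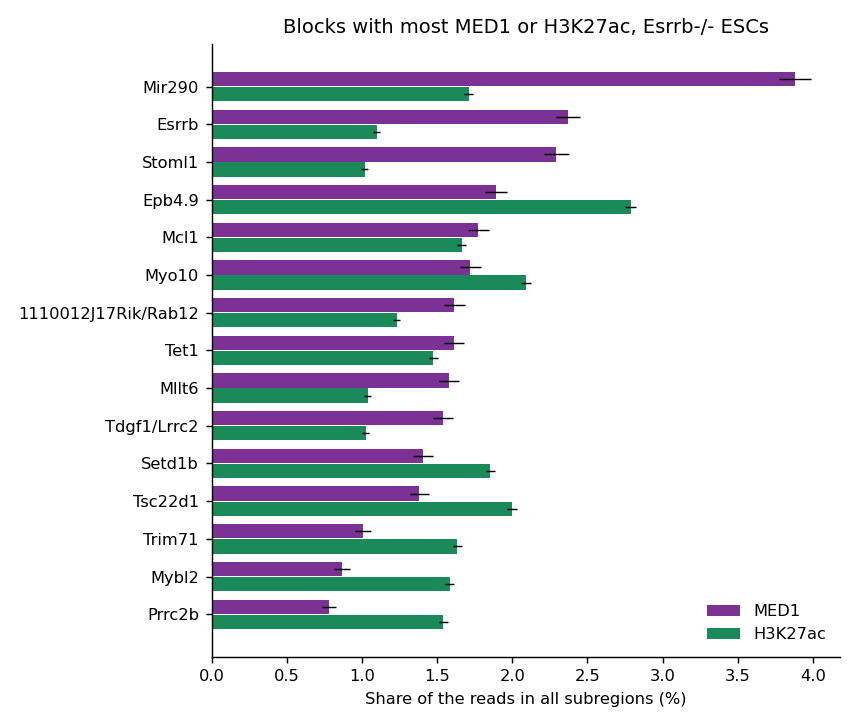
Share of all reads over the subregions, in percent, held by the 15 blocks that are among the 10 highest by MED1 or by H3K27ac in Esrrb-/- ESCs. Bars are MED1 (purple) and H3K27ac (green) and error bars 95% Wilson intervals, which cover counting error only. Mir290, Esrrb and Stoml1 have the longest MED1 bars, and Epb4.9 the longest H3K27ac bar.

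Most of the variation lay inside blocks. In the 164 blocks with more than 1 subregion, the log2 ratio had a within-block standard deviation of 0.94, against 1.04 over all subregions, and differed between its highest and lowest subregion by a median of 1.52. In 51 of the 164 blocks this range was at least 2, which is 4-fold or more. The subregion with most MED1 was also the one with most H3K27ac in 74 of the 164 blocks. Block sums of MED1 and H3K27ac reads had a Spearman correlation of 0.86, sums that grow with covered length, and block RPKM one of 0.52.

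At Mir290 the log2 ratio was -0.15, -1.09, 0.95, 1.66, 0.84 and 3.42 along the chromosome. MED1 ranged from 413 RPKM in the second subregion to 4412 in the last, next to the microRNA gene, whereas H3K27ac lay between 410 and 1052 RPKM. At Tet1, a 253-bp intronic PU subregion, chr10:62355594-62355846, held MED1 at 1343 and H3K27ac at 225 RPKM, beside a PU subregion of 2253 bp with 834 and 1776 RPKM. At Nanog, the homeodomain factor of pluripotency, both PU subregions had log2 ratios of 1.02 and 1.12, and the DM subregions on either side of the first had -1.12 and -0.71.

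**Figure D4:**
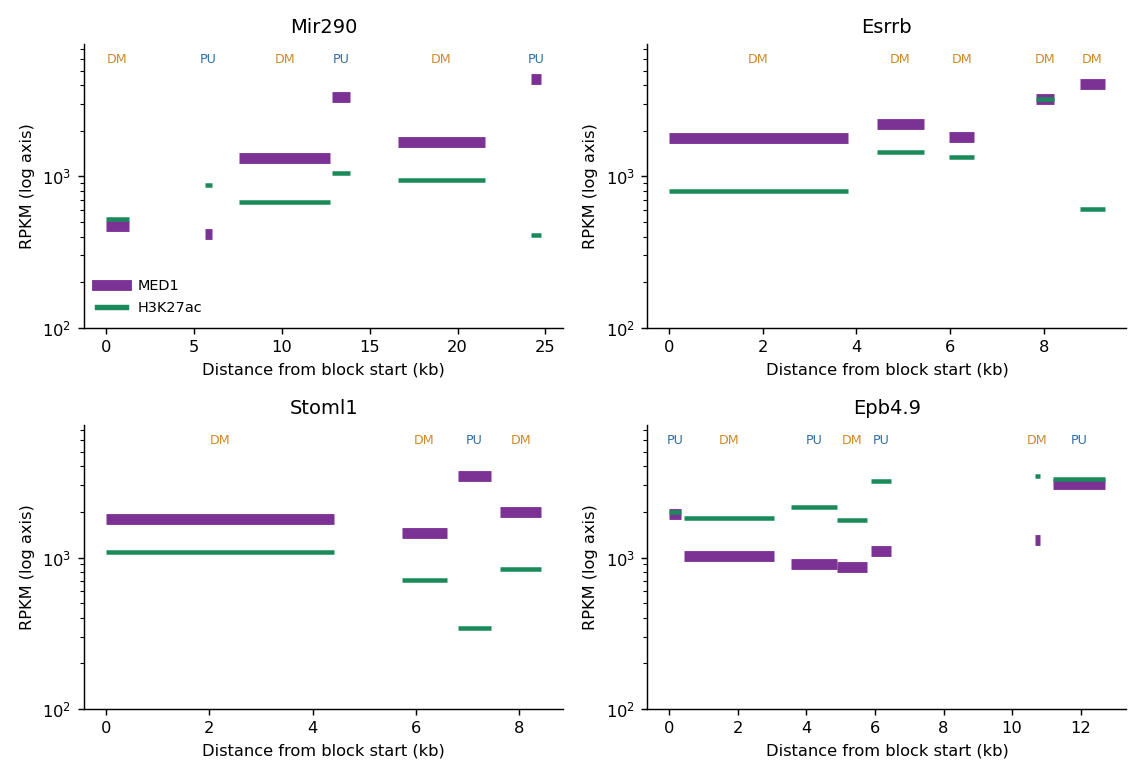
MED1 (thick purple) and H3K27ac (thin green) in RPKM on a log axis over the subregions of the 4 blocks with most MED1 in Esrrb-/- ESCs, each subregion drawn to length at its distance from the block start in kb, with its type above. The log2 ratio is 0.74 to 3.35 over the subregions of Stoml1 and -1.53 to -0.036 over those of Epb4.9, and at Mir290 MED1 is farthest above H3K27ac in the last PU subregion.

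Compared inside the 106 blocks with both types, PU exceeded DM in MED1 by a median of 0.58 on the log2 scale and was higher in 89 blocks. For H3K27ac the median was 0.29, with PU higher in 72 blocks. The log2 ratio of PU exceeded that of DM by 0.14, with PU higher in 58 of the 106 (54.7%), and with only subregions of at least 500 bp the difference turned to -0.12. The subregion with most MED1 was a PU in 78 of these blocks and the one with most H3K27ac in 58, where PU are 35.4% of their subregions. Where a block held 1 type only, the log2 ratio was higher than where it held both, with medians of 0.55 against -0.11 for PU and 0.12 against -0.26 for DM.

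Sequence motifs were looked for as exact letters on both strands of each subregion. AAGGTCA, the extended half-site of ESRRB and NR5A2, was found in 236 subregions (35.2%), 37.7% of DM and 28.4% of PU. ATGCAAA, the core of the octamer bound by POU factors such as OCT4, was found in 161 (24.0%), and GGGNGTGG, the core of KLF and SP sites, in 321 (47.8%). Among the 6 subregions whose centres are shown above, matches of the first pair of motifs at least 12 bases inside the subregion are printed here in 5′ to 3′ direction of the motif, with the motif in capitals, so that their flanks can be seen.
Mir290, chr7:3217670-3217700, + strand: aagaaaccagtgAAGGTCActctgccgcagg
Mir290, chr7:3218092-3218122, + strand: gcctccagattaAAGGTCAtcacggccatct
Stoml1, chr9:58127166-58127196, + strand: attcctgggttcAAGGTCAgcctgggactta
Stoml1, chr9:58127030-58127060, + strand: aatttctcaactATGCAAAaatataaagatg
Stoml1, chr9:58127289-58127319, - strand: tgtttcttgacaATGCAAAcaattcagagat
Esrrb, chr12:87819978-87820008, + strand: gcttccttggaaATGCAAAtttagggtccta
Klf13, chr7:71101583-71101613, - strand: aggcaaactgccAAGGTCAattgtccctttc
Epb4.9, chr14:71029142-71029172, + strand: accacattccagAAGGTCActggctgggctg

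Stoml1 held ATGCAAA at 2 places and Mir290 held AAGGTCA at 2. Since longer sequence holds more matches, subregions with and without a motif were compared within 5 bins of length. With ATGCAAA the log2 ratio was higher by 0.46 on average, in each of the 5 bins, by 0.30 to 0.76. The first of these rests on only 10 subregions with the motif, and without it the average was 0.38. Taken apart over the 5 bins, median MED1 with the motif was higher by 0.14 on the log2 scale and H3K27ac lower by 0.26. From the shortest to the longest bin, MED1 differed by -0.12, 0.33, 0.29, -0.029 and 0.21. H3K27ac differed by -0.88, 0.12, 0.12, -0.28 and -0.35. The first bin, with only 10 subregions that hold the motif, lowered both averages, that of H3K27ac more. Subregions with ATGCAAA were poorer in GC, with a median of 48.3% against 50.3%, and within bins of GC content the difference was 0.17, from -0.0044 to 0.28 by bin. There MED1 was higher with the motif by 0.29 on average and H3K27ac by 0.11.

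With AAGGTCA the difference was 0.18, from -0.0062 to 0.47 by bin, and 0.082 within bins of GC content. In the control cells, which have ESRRB, the same differences were 0.56 for AAGGTCA and 0.50 for ATGCAAA within bins of length. Within bins of GC content they were 0.53 and 0.43 there, so both motifs had the smaller average difference in Esrrb-/- cells under that binning. Within bins of length AAGGTCA had the smaller difference in Esrrb-/- cells too, but for ATGCAAA the order varied by bin. From the shortest to the longest bin, ATGCAAA differed by 0.76, 0.35, 0.50, 0.30 and 0.38 in Esrrb-/- cells. In the control cells it differed by 1.01, 0.63, 0.52, 0.077 and 0.27. Its lower average in Esrrb-/- cells thus leans on the first bin, with only 10 subregions that hold the motif. With GGGNGTGG the difference in Esrrb-/- cells was 0.053 within bins of length, from -0.28 to 0.27 by bin, and -0.0083 within bins of GC content. No test of these differences is possible with 1 value per subregion.

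Gene groups were formed by the protein-coding gene whose start lies nearest, and stand beside 14.5% of subregions with at least 2-fold excess of MED1, 16.2% with excess of H3K27ac and a median of -0.088 over all. The list of naive pluripotency genes, 12 of 14 of which had subregions under the names used, held 49 subregions with a median log2 ratio of 0.38. MED1 was in 2-fold excess at 12 of them (24.5%) and H3K27ac at 3 (6.12%). Tfcp2l1 was looked for under that name, while the annotation calls it Tcfcp2l1. Its 2 DM subregions, at -0.93 and -0.45, are therefore missing from the values of this list. Esrrb supplied 9 subregions, all DM, with a median of 1.03, MED1 between 1701 and 4944 RPKM and H3K27ac between 395 and 3265 RPKM. Without Esrrb the other 40 had a median of 0.24, with 7 (17.5%) in excess of MED1, nearer to the 14.5% of all, and 3 (7.5%) of H3K27ac. The highest MED1 of all subregions was the 309-bp intronic subregion chr12:87842636-87842944, at 4944 RPKM with H3K27ac at 395.

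Several other naive genes had log2 ratios above the median of all subregions throughout, and others did not. Both Klf4 subregions had log2 ratios of 1.35 and 0.69, and the 3 of Tet2, which like TET1 oxidises 5-methylcytosine, ranged from 0.51 to 1.07. The 7 of Prdm14, a repressor that guards naive cells against FGF signalling, ranged from -0.063 to 1.70. The single Zfp42 subregion stood at 2.36, with MED1 at 1666 and H3K27ac at 324 RPKM. Tbx3, a T-box factor, was divided, with 8 subregions between -1.44 and 1.79, and at Klf2 a 134-bp subregion held the highest H3K27ac of all, 4097 RPKM, against MED1 at 1794.

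The core pluripotency list held 25 subregions near 5 of its 6 genes, with a median of 0.068, 4 subregions (16.0%) in excess of MED1 and 2 (8.00%) of H3K27ac. Pou5f1, which codes for OCT4, had 3 subregions in a narrow range, between -0.093 and 0.23, with MED1 at 779 to 1529 RPKM. Sox2 varied more, with 6 subregions between 0.0078 and 2.29. The list of genes kept or gained in the primed state had 21 subregions near 6 of its 11 genes and a median of -0.20, with 2 (9.52%) in excess of MED1 and 4 (19.0%) of H3K27ac. Smarcad1, a chromatin remodeller, held a PU subregion with MED1 at 1485 and H3K27ac at 306 RPKM, while the 3 subregions of Klf13 had a median of -0.80.

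Signalling lists were small. The TGF-beta and Nodal list had 13 subregions near 4 of 8 genes and a median of 0.84, with 6 (46.2%) in excess of MED1 and 2 (15.4%) of H3K27ac. The Nodal antagonists Lefty1 (1.68 and 0.84) and Lefty2 (1.19) each lay above the median of all, whereas Id1, a target of BMP signalling, ranged from -0.85 to 1.45 over 4 subregions. Smad7, which supplied 6 of the 13 subregions, ranged from -1.10 to 1.80 with a median of -0.060. It held 2 of those in excess of MED1 and both of those in excess of H3K27ac. The FGF and ERK list had 9 subregions near Spry2 and Fgf4 with a median of 0.064. Of the 5 near Spry2, 4 had log2 ratios between 1.24 and 2.36, and a PU subregion of 57.1% GC had -0.53. The 4 near Fgf4, a gene that is also on the naive list, ranged from -0.89 to 0.064 with a median of -0.58. The LIF and STAT3 list had 4 subregions, near Socs3, an inhibitor of JAK signalling, and the kinase gene Pim1, with a median of -0.58.

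**Figure D5:**
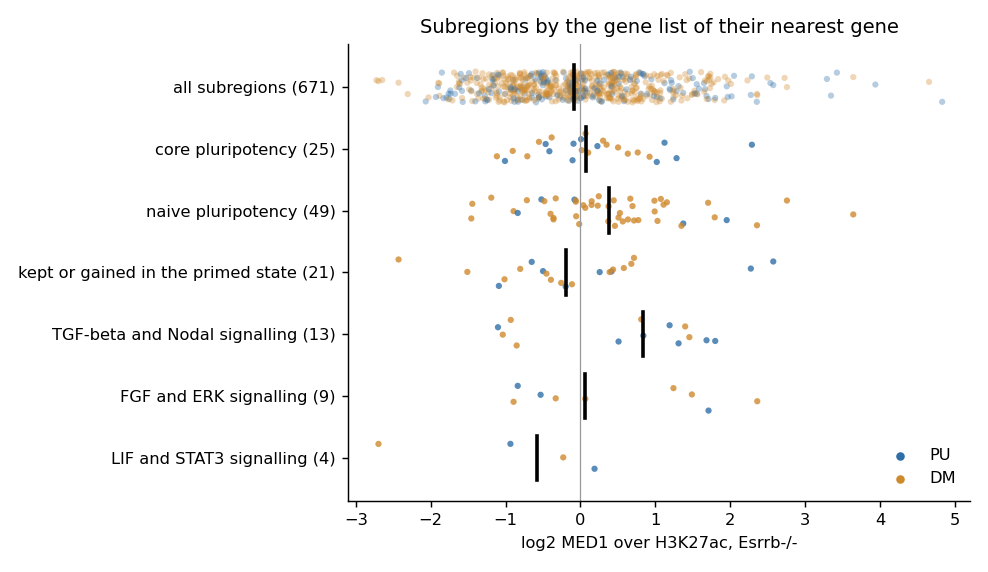
The log2 ratio of MED1 over H3K27ac in Esrrb-/- ESCs for each subregion, grouped by the list that holds its nearest gene, with all subregions on top, PU in blue and DM in orange. Black bars are medians, from 0.84 for the 13 subregions of the TGF-beta and Nodal list to -0.58 for the 4 of the LIF and STAT3 list; vertical scatter within a row carries no value.

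The order of the log2 ratio was partly shared with the control cells. Over all subregions it correlated with the ratio in the control cells at a Spearman coefficient of 0.52, and 34 of the 67 subregions with the highest ratio, 50.7%, were also among the 67 highest there. The 8 highest and 8 lowest named above were chosen by their ratio in Esrrb-/- cells. The 8 highest had 2.29 to 4.83 there and 1.23 to 4.34 in the control cells, and of these Mir290 stood at 3.42 and 3.56, Sox2 at 2.29 and 1.23 and Zfp42 at 2.36 and 3.31. The 8 lowest had -2.43 to -1.79 and, in the control cells, -0.86 to 0.64, with Klf13 at -2.43 and -0.86 and Mybl2 at -1.79 and 0.64.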

How the data were processed

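MED1 and H3K27ac ChIP-seq signal was taken as deposited by the authors, in RPKM per subregion, 1 column per antibody and genotype, with replicates pooled in a way not given in the sources used here. The authors trimmed paired-end reads with Trimmomatic, aligned them to mm9 with Bowtie2, removed duplicates and blacklisted reads, and counted overlaps with GenomicRanges. Per the labels, MED1 was precipitated with 8 µg antibody from 800 µg chromatin.

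Here, RPKM times end minus start position, 1 bp less than the lengths printed, gave whole reads for 100% of values (tolerance 0.01). They are the smallest whole numbers in proportion, so true counts could be a multiple. The implied totals were 230504 reads for MED1 and 1183707 for H3K27ac, which sets the larger counting error of MED1. These totals are far below the mapped read pairs the study lists per library, and which reads the authors scaled to is not given in the sources used here. A pseudocount of 1 RPKM, Wilson intervals and, for ratios, normal intervals on the log scale were used (pandas 2.3.3, scipy 1.17.1), and the steps were tested on simulated data. Bins hold equal numbers of subregions. Subregions named are the 8 highest by each mark and the 8 highest and lowest by log2 ratio, of at least 500 bp and, for the ratio, 50 reads; blocks named are the 10 highest by each mark. Matches and genes came from the mm9 genome and GENCODE vM1. Sequence is printed for 3 subregions at each end of the ratio, and further sequences are not reported here. The subregions, lists and tests were chosen with earlier results of these data known. Alternatives are given under the processing heading.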

Additional observations from a re-analysis of the deposited data

How the results depend on the processing

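Of 104 values recomputed under other settings, 92 stayed within the sampling range of the reported value over subregions, and pseudocounts of 0.1 and 10 RPKM and leaving out chromosome X moved none beyond it. That range takes subregions or reads as independent, although they share libraries and loci, so the tally does not measure stability. Within bins of GC content, ATGCAAA fell from 0.46 to 0.17 and gene starts went from -0.43 to -0.18, both inside it. So did PU minus DM inside blocks, from 0.14 to -0.12 at 500 bp or more. With each antibody scaled to its reads in the subregions, the DM median turned from -0.095 to 0.028 and the PU median from -0.083 to 0.039, since every ratio rose by 0.12. The share of MED1 reads in the 10 highest blocks was 20.9% with subregions of at least 500 bp, 20.9% with those of at least 50 reads and 21.6% with gaps of 25000 bp. That of H3K27ac was 18.9%, 18.8% and 18.7% in the same order, 17.4% with gaps of 5000 bp and 18.7% without the subregions nearest to Esrrb. The correlation of both marks was 0.45 with at least 50 reads each. The gene start difference was -0.057 with a 5 kb window, and PU minus DM was 0.55 within bins of GC content, and the cause was not tested. The PU minus DM difference lay near 0 and changed sign without a call, from -0.095 at 500 bp or more to 0.097 with means. Bins of GC content, and leaving out thin bins of length, were chosen after seeing the data. No paired analysis was possible because each antibody and genotype has 1 pooled column, and for the same reason no replicate could be left out. MED1 rests on fewer reads than H3K27ac, a median of 106 per subregion, and 4 at the lowest.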

Other observations

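Several of the most extreme values belong to subregions too short or too thinly covered for the naming rule, and were picked after their values were seen. A 419-bp intronic PU subregion of Tsc22d1, 1137 bp from its nearest annotated start, held MED1 at 758 RPKM from 73 reads and H3K27ac at 48.5 RPKM from 24 reads, a log2 ratio of 3.94 (95% counting interval 3.27 to 4.60). It lies 500 bp from a PU subregion over the gene start with H3K27ac at 2640 RPKM, and their GC contents are 40.3% and 52.9%. In the control cells the short subregion had a log2 ratio of 1.37.

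An intergenic DM subregion of 249 bp near 5730419I09Rik reached 4.65, but on 4 H3K27ac reads against 21 MED1 reads, with a 95% counting interval of 3.11 to 6.20. In the same block a PU subregion of 64.5% GC stood at -1.60. At the low end, DM subregions near Pipox (-2.72), Pim1 (-2.70) and Nfkbia (-2.65) rest on 20, 19 and 4 MED1 reads, and all 3 are under 250 bp long.

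At the Epb4.9 block both marks ranked higher than in the control cells. MED1 in its 7 subregions ran from 872 to 3049 RPKM in Esrrb-/- cells and from 153 to 1216 in the control cells, and H3K27ac from 1783 to 3454 against 267 to 932 RPKM. Each column was scaled to its own total, so RPKM cannot be compared directly between genotypes. The highest H3K27ac of any subregion was 4097 RPKM in Esrrb-/- cells and 1358 RPKM in the control cells. The subregions of Epb4.9 share 1 locus and the values have no replicate error.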
